A study of Mus musculus with 4 samples.

Results

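The catenins were followed across the cell states of muscle stem cells (MuSCs), the satellite cells of skeletal muscle. All 7 genes named as catenins in this set were taken by symbol from the 32285 genes of the count tables: Ctnna1 (αE-catenin), Ctnna2 (αN-catenin), Ctnna3 (αT-catenin), the related Ctnnal1 (α-catulin), Ctnnb1 (β-catenin), Jup (γ-catenin, or plakoglobin) and Ctnnd1 (p120-catenin). Classical cadherins hold neighbouring cells together, and their cytoplasmic tails bind p120-catenin near the membrane and β- or γ-catenin further along. An α-catenin joins β- or γ-catenin to the actin cytoskeleton, which makes the junction able to bear force. MuSCs sit between the myofiber and the basal lamina and carry M- and N-cadherin on the side that faces the fiber, and β-catenin outside junctions is also the transcriptional effector of canonical Wnt signaling.

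tdTomato+ cells were sorted without surface markers from hindlimb muscle of C57BL/6J mice aged 3 to 4 months, 14 days after tamoxifen, and profiled by droplet single cell RNA-sequencing of transcript 3′ ends. Control mice were Pax7 CreERT2/+ with the Rosa26-tdTomato reporter and carried no floxed allele. α-cdKO mice were Ctnna1 fl/fl and Ctnna3 fl/fl with the same driver and reporter, so that both α-catenin genes were targeted in Pax7+ cells, and tamoxifen and reporter were shared by both groups. There were 2 libraries per genotype, each from a pool of 2 littermates, so p values between genotypes rest on 2 pools against 2, those between states on differences within the 4 pools, and none on the spread between single mice. Pax7 drives recombination in MuSCs and their descendants, and cells of other types in the sort are not a test of the deletion.

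The libraries held 48515992 and 46099310 UMIs (unique molecule counts) in control 1 and control 2, and 73261352 and 74921651 in α-cdKO 1 and α-cdKO 2. Of 31254 barcodes, 28790 cells were kept (1000 or more UMIs, 400 or more genes, and a mitochondrial share below 15%), and 27177 of them were classed as myogenic. Between 10 and 28 barcodes were shared by any pair of libraries. Clusters were named from marker genes, with the catenins and their partner genes kept out of the clustering. The quiescent-like class (4484 cells) was led by Fos, Jun and Hes1, and the activated-like class (20417 cells) held a chemokine-led cluster of 12065 cells and a chaperone-led cluster of 8352 cells. These are states of dissociated, sorted cells. The paper reads Fos in its own quiescent-like cluster as the earliest activation, likely from isolation, and also saw a stress response to isolation. The part of isolation in the differences between these classes was not tested. The cycling-like class had 651 cells, the differentiated-like class 1321 and the mature-myocyte-like class 304. Cells set apart before the myogenic cells were clustered again were mature-muscle-like (1301 cells), endothelial-like (179 cells) and immune-like (133 cells), and leading genes of the last class also included Mgp, which is not an immune gene.

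Some libraries and classes stood apart whatever the catenins did. α-cdKO 1 held cells of both sexes: 4947 of its 9402 myogenic cells held UMIs of Xist and none of 4 Y-linked genes (Xist-only cells) and 2840 the reverse (Y-only cells), while each of the other libraries had at most 1 Xist-only myogenic cell. Control 2 supplied 786 of the 1301 mature-muscle-like cells. The cycling-like class of control 1 had only 31 cells, in which the 8 immune markers summed to 19006 CPM (UMIs of a gene per 1000000 UMIs of those cells), led by S100a9 at 8843 CPM, against 2.81 to 11.7 CPM in the other 3 libraries. Results are therefore also given without α-cdKO 1, among Y-only cells, or without control 1.

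A 3′ count has no length term, so CPM of different genes were set side by side without dividing by transcript length. How well each 3′ end was captured is not known. Ctnna1 lies at chr18:35118859-35254779 on the plus strand of GRCm38 (18 exons), Ctnna3 at chr10:63430098-65003667 on the plus strand (18 exons) and Ctnna2 at chr6:76881637-77979699 on the minus strand (19 exons). Ctnnal1 is at chr4:56810935-56865188 (minus, 19 exons), Ctnnb1 at chr9:120929216-120960507 (plus, 15 exons), Jup at chr11:100368958-100397763 (minus, 14 exons) and Ctnnd1 at chr2:84600071-84650765 (minus, 20 exons). The floxed segments were not placed on the genome here. A 3′ tag outside the deleted part of Ctnna1 or Ctnna3 checks nothing about the deletion, so the counts below are levels of 3′ tags and not of intact α-catenin transcripts. Each of the 3 α-catenin genes holds an oppositely transcribed neuronal adhesion gene in its span, Lrrtm2 in Ctnna1, Lrrtm1 in Ctnna2 and Lrrtm3 in Ctnna3. In myogenic cells Lrrtm2 was at 1.0 to 1.7 CPM and Lrrtm3 at 1.2 to 2.3 CPM across the 4 libraries, and Lrrtm1 had 0 UMIs.

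**Figure D1:**
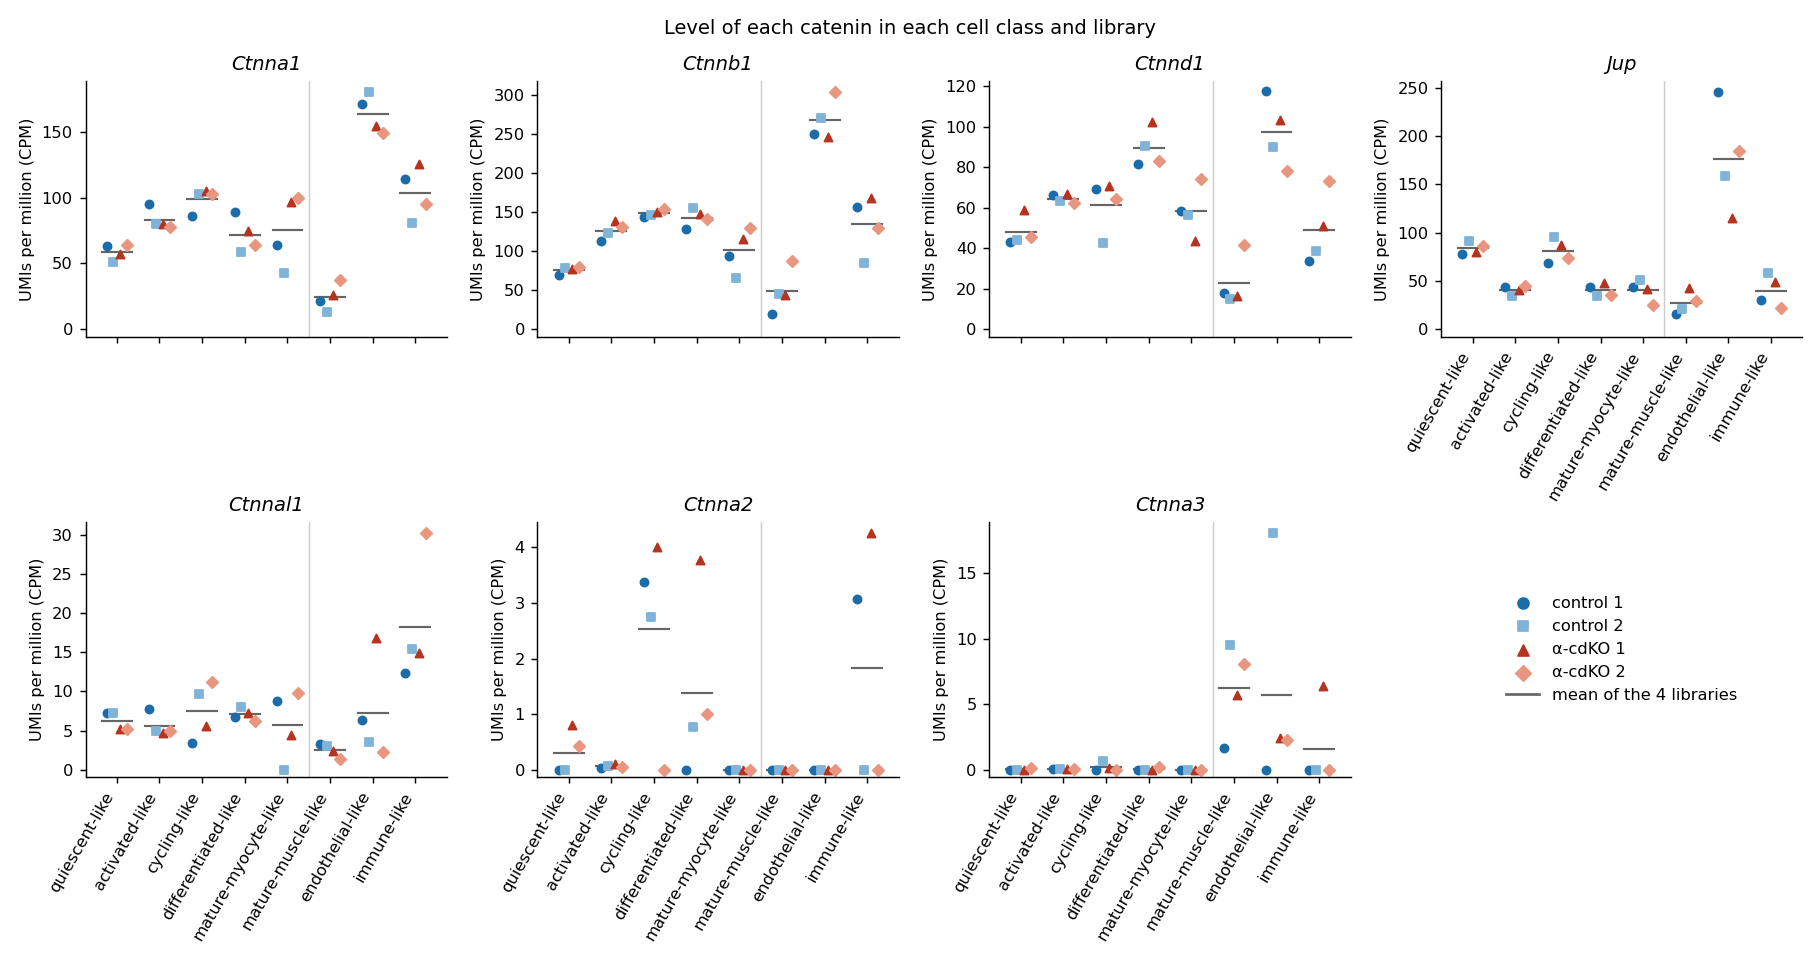
Level of each catenin (CPM) by cell class, with 1 point per library and a bar at the mean of the 4 libraries, myogenic classes left of the vertical line. Ctnna1, Ctnnb1, Ctnnd1 and Jup were above 30 CPM in every library of the quiescent-like and activated-like classes, Ctnnal1 was at or below 11.2 CPM in all myogenic classes, and Ctnna3 was at 1.63 to 9.50 CPM in the mature-muscle-like class.

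Among the targeted genes, Ctnna1 3′ tags were present at similar levels in both genotypes. The level over all myogenic cells was 91.0 CPM in control 1, 74.7 in control 2, 79.4 in α-cdKO 1 and 75.6 in α-cdKO 2, so the α-cdKO libraries lay inside the range of the controls. In quiescent-like cells the same order gave 63.2, 51.4, 57.2 and 63.9 CPM, and in activated-like cells 95.3, 80.0, 80.0 and 77.3 CPM. Cycling-like cells held 86.0, 102, 105 and 103 CPM and differentiated-like cells 89.2, 58.8, 74.8 and 63.9 CPM. All 4 quiescent-like values were below all 4 activated-like values. The highest level was in endothelial-like cells, at 149 to 180 CPM, and the lowest in mature-muscle-like cells, at 13.1 to 37.5 CPM, neither of which overlapped any myogenic class. The immune-like, cycling-like, activated-like, mature-myocyte-like and differentiated-like ranges overlapped their neighbours in the order of levels.

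Ctnna1 made up 99.5% of the UMIs of the 3 α-catenins in myogenic cells (18384 of 18483 UMIs, exact binomial 95% interval 99.3 to 99.6). This share was 99.4% in quiescent-like, 99.9% in activated-like and 97.0% in cycling-like cells. Differentiated-like cells held 1227 UMIs of Ctnna1, 35 of Ctnna2 and 1 of Ctnna3. Library α-cdKO 1 alone held 25 of the 31 cycling-like and 28 of the 35 differentiated-like Ctnna2 UMIs. In mature-muscle-like cells the pooled Ctnna1 share was 71.8% (117 of 163 UMIs, interval 64.2 to 78.5). Control 2 held 32 of the 46 Ctnna3 UMIs of this class, so the Ctnna3 part of the pooled share rests largely on that library. All such intervals cover counting error only. The shares are of 3′ tags and not of protein.

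Ctnna3, the α-catenin known from heart and muscle junctions and the second targeted gene, had 1, 2, 2 and 7 UMIs in the myogenic cells of control 1, control 2, α-cdKO 1 and α-cdKO 2. These 12 UMIs lay in 12 cells and amounted to 0.0520 CPM (exact Poisson 95% interval 0.0269 to 0.0909), of which 9 were in α-cdKO libraries. At this depth a fall of Ctnna3 with the deletion was not detectable in MuSCs. The low count also does not show that αT-catenin is absent, since the paper's immunostaining found its protein in control MuSCs throughout. Mature-muscle-like cells held 1, 32, 7 and 6 UMIs in the same order, or 1.63, 9.50, 5.67 and 8.03 CPM. Their level was above that of the myogenic cells in all 4 libraries, and pooled it was 7.71 CPM (interval 5.65 to 10.3) in 43 of 1301 cells. A further 7 UMIs were in endothelial-like cells, 5 of them in 3 cells of control 2. In the endothelial-like cells of that library the 9 mature-muscle markers summed to 2349 CPM, led by Acta1, against 303 to 392 CPM in the other libraries, and their part in these UMIs was not tested.

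Ctnna2, the neuronal α-catenin, had 87 UMIs in 69 of 27177 myogenic cells, 3 in control 1, 8 in control 2, 64 in α-cdKO 1 and 12 in α-cdKO 2. One library thus held most of them. In α-cdKO 1, 54 of the 64 were in Xist-only cells (1.34 CPM, interval 1.01 to 1.75) and 3 in Y-only cells (0.164 CPM, interval 0.0338 to 0.478). Within states the intervals overlapped. Xist-only and Y-only cells held 22 and 2 UMIs in the differentiated-like class (3.55 and 3.71 CPM) and 22 and 1 in the cycling-like class (4.51 and 1.81 CPM). They held 6 and 0 in the quiescent-like and 4 and 0 in the activated-like class. Xist-only cells included 317 cycling-like and 556 differentiated-like cells, Y-only cells 34 and 44. By class, cycling-like cells held 2, 4, 25 and 0 UMIs in control 1, control 2, α-cdKO 1 and α-cdKO 2, and differentiated-like cells 0, 2, 28 and 5, against 1, 2, 5 and 3 in the far larger activated-like class. The part of the sex of the cells, the pool and the state in this pattern was not tested.

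Ctnnal1, whose product resembles α-catenin and vinculin, was low in all states. The level over myogenic cells was 7.57 CPM in control 1, 5.62 in control 2, 5.14 in α-cdKO 1 and 5.32 in α-cdKO 2, and both α-cdKO values were below both controls. It made up 6.76% of the joint UMIs of Ctnna1 and Ctnnal1 (1332 of 19716 UMIs), and 9.27% in quiescent-like against 6.27% in activated-like cells. Class means ran from 5.60 CPM in activated-like to 7.46 CPM in cycling-like cells with overlapping libraries. In edgeR, Ctnnal1 was called higher in cycling-like than in activated-like cells when scaled by library totals (log2 fold change 0.54, adjusted p = 0.049), and not with TMM, which scales by the trimmed mean of gene ratios (−0.0025, adjusted p = 0.99).

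β-catenin and γ-catenin bind the same cadherin site, and their genes ran in opposite directions between quiescent-like and activated-like cells. Ctnnb1 was at 69.5, 78.4, 77.2 and 79.9 CPM in quiescent-like cells of control 1, control 2, α-cdKO 1 and α-cdKO 2. In activated-like cells it was at 113, 123, 138 and 131 CPM. Every activated-like library was above every quiescent-like library. Jup was at 77.7, 91.4, 79.9 and 86.0 CPM in quiescent-like cells and at 44.0, 34.6, 40.3 and 44.3 CPM in activated-like cells, so the groups again did not overlap but the order was the reverse. Within the activated-like class Jup was at 24.4 to 36.3 CPM in the chemokine-led cluster and at 47.8 to 59.1 CPM in the chaperone-led cluster, and Ctnnb1 was at 119 to 147 CPM in the first and 105 to 124 CPM in the second.

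The share of Jup among the UMIs of Ctnnb1 and Jup needs no scaling between states. It was 52.8%, 53.8%, 50.8% and 51.8% in quiescent-like cells of control 1, control 2, α-cdKO 1 and α-cdKO 2, and 28.01%, 22.0%, 22.6% and 25.3% in activated-like cells. Cycling-like cells lay between, at 32.5%, 39.6%, 36.8% and 32.5%. In the main clustering, differentiated-like cells were at 25.4%, 18.1%, 24.6% and 19.9% and overlapped the activated-like class. The number of differentiated-like cells changed with the clustering settings, as given below. Jup tags were thus about as frequent as Ctnnb1 tags in quiescent-like cells of each library and the less frequent of the pair in every other myogenic state. In endothelial-like cells Jup was at 116 to 246 CPM and Ctnnb1 at 246 to 303 CPM, each above all myogenic libraries.

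**Figure D2:**
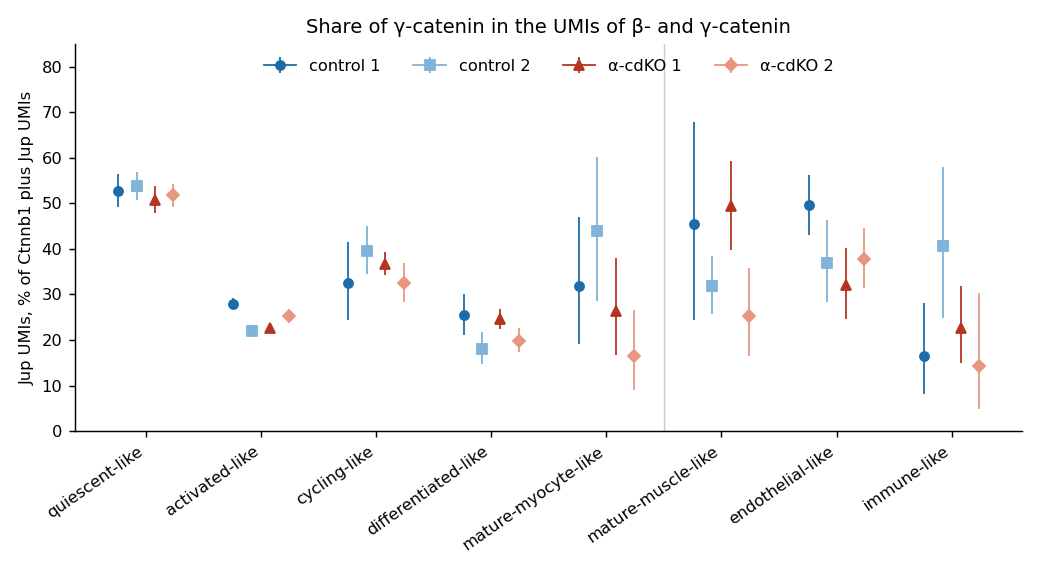
Share of Jup in the UMIs of Ctnnb1 plus Jup (%), by cell class, 1 point per library with its exact binomial 95% interval, myogenic classes left of the vertical line. The 4 quiescent-like libraries sit between 50.8% and 53.8%, above the 22.0% to 28.01% of the activated-like libraries.

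Markers of other cell types also differed between these 2 states. The 7 endothelial markers summed to 33.0, 15.5, 24.8 and 15.8 CPM in quiescent-like cells of control 1, control 2, α-cdKO 1 and α-cdKO 2 and to 4.03, 3.50, 4.52 and 4.11 CPM in activated-like cells. Of these 7 genes, 4, 4, 4 and 5 had a UMI in the quiescent-like libraries, and Pecam1 led the sum at 13.2 to 29.6 CPM. In endothelial-like cells the same list summed to 8759 to 10943 CPM and was led by Fabp4. The 5 fibro-adipogenic markers summed to 739 to 1322 CPM in quiescent-like and 448 to 802 CPM in activated-like cells, nearly all of it Col3a1. Their part in the difference of Jup was not tested. With α-cdKO 1 left out, Jup kept its direction and call in the test given below (log2 fold change −0.94, adjusted p = 7.9e-06).

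Ctnnb1 and Jup are shown with the 250 bases before their most upstream RefSeq start (GRCm38.p6), because their counts ran in opposite directions. Both are written 5′ to 3′ in the direction of the gene, at chr9:120933150-120933399 (plus strand) for Ctnnb1 and chr11:100397791-100398040 (minus strand) for Jup. Capitals mark GGGCGG on either strand, the letters of a GC box, and CANNTG, the letters of an E-box, was also searched on both strands.

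Ctnnb1: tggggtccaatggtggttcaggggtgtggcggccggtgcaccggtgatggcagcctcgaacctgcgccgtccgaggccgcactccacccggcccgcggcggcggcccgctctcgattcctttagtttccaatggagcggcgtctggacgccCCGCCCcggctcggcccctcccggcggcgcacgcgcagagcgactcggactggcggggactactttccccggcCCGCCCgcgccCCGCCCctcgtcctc

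Jup: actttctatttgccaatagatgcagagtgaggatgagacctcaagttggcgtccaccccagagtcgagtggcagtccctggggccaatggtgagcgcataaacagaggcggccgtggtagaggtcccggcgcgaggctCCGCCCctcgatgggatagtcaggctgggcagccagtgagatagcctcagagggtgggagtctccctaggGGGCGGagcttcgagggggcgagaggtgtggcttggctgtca

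The Ctnnb1 window held 3 GGGCGG matches and 35 CpG pairs at a GC content of 74.8%, and the Jup window held 2 matches and 13 CpG pairs at 62.0%. Neither held CANNTG, which 66.2% of 32851 RefSeq windows of this length hold, while 32.7% hold GGGCGG. A match is a description of the letters and not a bound site, and the letters were not tied to the counts by any test. The Ctnnb1 window lies inside the longer gene span that GENCODE gives and overlaps none of its exons.

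p120-catenin holds cadherins at the membrane. Ctnnd1 was at 43.0, 44.1, 58.9 and 45.7 CPM in quiescent-like cells of control 1, control 2, α-cdKO 1 and α-cdKO 2 and at 66.2, 63.1, 66.7 and 62.1 CPM in activated-like cells, without overlap. Differentiated-like cells were higher still in CPM, at 81.6, 90.4, 102 and 83.0. Cycling-like values of 69.1, 42.6, 70.6 and 64.2 CPM spanned the quiescent-like and activated-like ranges. The lowest level was in mature-muscle-like cells, at 14.8 to 41.5 CPM.

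UMIs were summed per library and state, and differences between states were tested with edgeR with the library as a block and TMM scaling. The states were built from these same cells, so the adjusted p values describe the clusters and are not an independent test of them. From quiescent-like to activated-like cells, Ctnna1 rose by a log2 fold change of 0.62 (SE 0.10, adjusted p = 9.7e-06), Ctnnb1 by 0.86 (SE 0.07, adjusted p = 1.1e-09) and Ctnnd1 by 0.57 (SE 0.10, adjusted p = 2.9e-05). Jup fell by 0.91 (SE 0.11, adjusted p = 2.7e-07), and the direction held in 4 of 4 libraries for each of these 4 genes. Ctnna2 also passed the test (−2.17, SE 0.83, adjusted p = 0.024) on 10 quiescent-like and 11 activated-like UMIs, but it was lower in only 2 of 4 libraries, since both controls had 0 quiescent-like UMIs. Its call was lost in 7 of 13 alternatives, among them without α-cdKO 2 (−1.86, adjusted p = 0.099), and the value went as far as −0.39 (adjusted p = 0.65) at Louvain resolution 0.1. Without α-cdKO 1 the gene Ctnna2 was not tested, so its place among the tested genes rests on that library. Ctnnal1 did not pass (−0.02, 95% interval −0.40 to 0.36). Thus 5 of 6 tested catenins were called, where 74.3% of all 11887 genes tested were called, so the number called is near the background of this comparison. By direction, 3 rose and 2 fell, Ctnna2 among the latter, beside 30.8% and 43.4% of all genes. The median change of the 6 was 0.27 and that of all genes −0.21. Ctnna3 was not tested because its counts were too low for the expression filter.

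Directions against the cycling-like class depended on scaling. In CPM, Ctnnb1 was above the activated-like level in 4 of 4 libraries, yet with TMM it was lower (log2 fold change −0.32, SE 0.08, adjusted p = 7.8e-04), and with scaling by library totals alone it was higher (0.23, adjusted p = 0.0094). Ctnna1 turned in the same way, from −0.24 (adjusted p = 0.051) to 0.31. It was called lower in 6 of 14 alternatives, and the lowest value over all of them was −0.36. The median change of all genes in this comparison was 0.10 with TMM, 0.03 with DESeq2 and 0.65 with library totals. Ctnnd1 was lower by 0.63 with TMM (SE 0.11, adjusted p = 4.9e-05) and by 0.08 with library totals (adjusted p = 0.52). Jup was higher in cycling-like cells under each scaling (0.47 with TMM, SE 0.12, adjusted p = 0.0022; 0.40 with DESeq2; 1.02 with library totals). Without control 1, whose cycling-like cells carried the immune markers, Jup was higher by 0.56 (adjusted p = 7.4e-04), and without α-cdKO 1 by 0.43 (adjusted p = 0.023). The 5 fibro-adipogenic markers, led by Col3a1, summed to 1365 to 2523 CPM in cycling-like and 448 to 802 CPM in activated-like cells. Their part in this difference of Jup was not tested. Called with TMM were 4 of 6 catenins, with Ctnna2 as the fourth (4.26, SE 0.67), beside 66.9% of all genes. Ctnna2 was not tested without α-cdKO 1, which held 25 of its 31 cycling-like UMIs. By direction, 2 rose and 2 fell with TMM, 2 rose and 3 fell with DESeq2, and 5 rose and 0 fell with library totals.

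**Figure D3:**
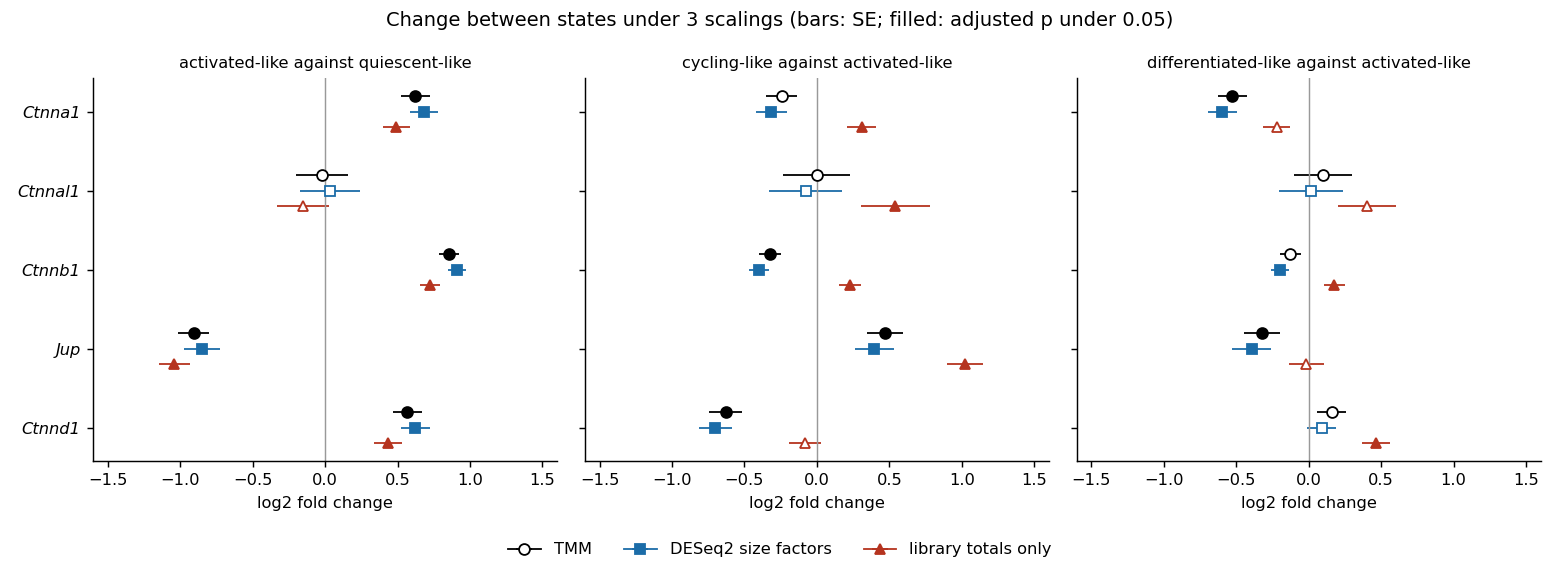
Log2 fold change of 5 catenins between states (columns) under TMM, DESeq2 size factors and library totals, with bars of 1 SE and filled symbols for an adjusted p under 0.05. Ctnnb1 keeps its side of 0 in the first comparison (0.72 to 0.91) and crosses it in the other 2.

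From activated-like to differentiated-like cells, Ctnna1 fell by 0.53 on the log2 scale (SE 0.10, adjusted p = 1.6e-04) and Jup by 0.32 (SE 0.12, adjusted p = 0.029), and with library totals both missed the threshold (−0.22, adjusted p = 0.051, and −0.02, adjusted p = 0.92). The Jup call was also lost without control 1 (−0.30, adjusted p = 0.050) and without α-cdKO 2 (−0.26, adjusted p = 0.17), or in 3 of 14 alternatives. Ctnnb1 (−0.13, adjusted p = 0.13) and Ctnnd1 (0.16, adjusted p = 0.18) did not pass with TMM. Ctnnb1 was called in opposite directions by the other scalings, lower with DESeq2 (−0.20, adjusted p = 0.0028) and higher with library totals (0.18, adjusted p = 0.033), and Ctnnd1 was called higher with library totals (0.46, adjusted p = 3.4e-04). By direction, 1 catenin rose and 2 fell with TMM, 1 rose and 3 fell with DESeq2, and 3 rose and 0 fell with library totals, where the median change of all genes was 0.03, −0.04 and 0.33. Ctnna2 was the third gene called (4.11, SE 0.63, adjusted p = 1.1e-05), not called in 3 of 13 alternatives (1.63 to 1.79, adjusted p up to 0.14) and not tested once α-cdKO 1 was left out, and 3 of 6 stood beside 57.8% of all genes. Which cells were counted as differentiated-like mattered. The class held 1321 cells in the main clustering and 1217 to 1387 in some alternatives. It held only 462 with a second set of clustering seeds, 469 at Louvain resolution 0.1 and 436 without the top doublet scores. With the second seeds Ctnna1 fell by 1.10 and Jup by 1.36, so the sizes of these changes depend on how the class was drawn.

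The deletion of the α-catenins was not accompanied by a called change of any catenin. In all myogenic cells 0 of 6 tested catenins were called by edgeR, 0 had an unadjusted p under 0.05, and 0.171% of 14635 genes were called. The count was also 0 of 5 in quiescent-like (0.078% of all genes), activated-like (0.32%), cycling-like (0.0223%) and differentiated-like cells (0.0102%), and 0 with DESeq2 in each class. The estimates are averages over all sorted cells of a class. The paper reports that most MuSCs left in α-cdKO mice still stained for an α-catenin. A change confined to cells that had lost both is therefore not bounded here. On simulated counts, the genotype test in all myogenic cells recovered 45.5% of true log2 fold changes of 1. For Ctnnb1 in all myogenic cells, at 109, 118, 133 and 126 CPM in control 1, control 2, α-cdKO 1 and α-cdKO 2, the log2 fold change was 0.18 (95% interval −0.09 to 0.45), with both α-cdKO libraries above both controls. Jup, at 48.1, 45.8, 49.6 and 49.7 CPM, changed by 0.07 (−0.21 to 0.36), and Ctnnd1, at 64.3, 61.1, 69.8 and 61.6 CPM, by 0.06 (−0.22 to 0.34). For Ctnna1 the estimate was −0.11 (−0.44 to 0.23) and for Ctnnal1 −0.34 (−0.82 to 0.13). The Ctnnal1 value was −0.094 without control 1 and −0.55 without control 2, and in activated-like cells −0.0080 and −0.60. Ctnna2 was 2.05 higher (−0.18 to 4.27, adjusted p = 0.72) and could not be tested without α-cdKO 1.

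Within states the estimates varied more, and 0 were called. For Ctnnd1 they ran from 0.02 in activated-like to 0.42 in cycling-like cells (−0.13 to 0.96, but 0.058 without control 2 and 0.73 without control 1), for Ctnnal1 from −0.44 in quiescent-like (−0.98 to 0.10) to 0.07 in cycling-like cells, and for Ctnna1 from −0.12 in activated-like to 0.18 in cycling-like cells. In quiescent-like cells Ctnna1 differed by 0.13 (−0.21 to 0.48), Ctnnb1 by 0.13 (−0.20 to 0.46), Jup by 0.01 (−0.33 to 0.36) and Ctnnd1 by 0.30 (−0.07 to 0.68). Quiescent-like Ctnnd1 was highest in α-cdKO 1 (58.9 CPM) and at 43.0 to 45.7 CPM in the other libraries. Among Y-only cells of all libraries, the myogenic estimates were −0.08 for Ctnna1, 0.25 for Ctnnb1, −0.01 for Jup and 0.03 for Ctnnd1, and 0 catenins were called. The change from quiescent-like to activated-like cells did not differ between genotypes by a called amount for any of 5 catenins, with 0.0216% of 13893 genes called. Its interaction was −0.27 (SE 0.16) for Ctnna1, −0.29 (SE 0.16) for Ctnnd1, 0.12 (SE 0.19) for Jup and 0.07 (SE 0.14) for Ctnnb1.

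**Figure D4:**
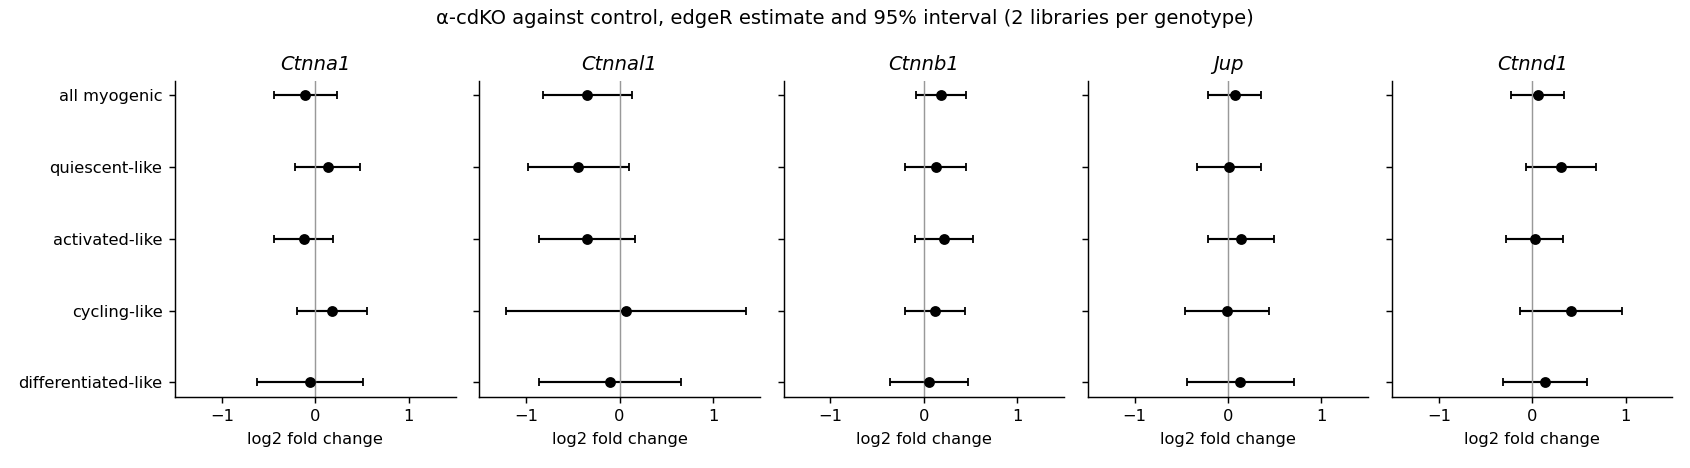
Log2 fold change of 5 catenins, α-cdKO against control, in all myogenic cells and in 4 states, with 95% intervals from edgeR (2 libraries per genotype). All 25 intervals include 0, and the estimates for Ctnnb1 lie between 0.06 and 0.22.

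Counted cell by cell, a catenin UMI was seen in a minority of cells. After each cell was thinned to 2000 UMIs, 13.9% of 26792 myogenic cells had a Ctnna1 UMI, 20.1% a Ctnnb1 UMI, 11.3% a Ctnnd1 UMI and 8.83% a Jup UMI. The shares were 1.13% for Ctnnal1, 0.06% for Ctnna2 and 0.02% for Ctnna3. Mature-muscle-like cells, where MuSC genes should be low, gave 2.51% for Ctnna1, 1.85% for Pax7 and 1.96% for Cdh15, with a median depth before thinning of 4535 UMIs against 7481.5 in myogenic cells. Ctnna1 was seen in 16.01%, 13.3%, 13.9% and 12.99% of myogenic cells in control 1, control 2, α-cdKO 1 and α-cdKO 2, or 14.6% ± 1.94 (SD, n = 2) in controls and 13.4% ± 0.62 (SD, n = 2) in α-cdKO. The difference of −1.20 percentage points was within the spread of the controls (two-sided exact permutation test, p = 0.6667, where 0.3333 is the smallest p that 2 against 2 allows). Unthinned shares were 44.8% in controls and 40.9% in α-cdKO. A population of MuSCs without Ctnna1 tags could not be separated at this depth, since most cells had none after thinning. Quiescent-like cells had a Jup UMI in 14.9% of cells and a Ctnnb1 UMI in 13.6%, and activated-like cells in 7.48% and 21.2%. Both genes were seen together in 1.88% of myogenic cells, against 1.77% if they were independent. This pools states in which the pair ran in opposite directions: the shares were 2.83% against 2.02% in quiescent-like, 1.64% against 1.59% in activated-like, 3.96% against 3.00% in cycling-like and 1.54% against 1.78% in differentiated-like cells, the last 2 on 25 and 20 cells.

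Genes that act with the catenins were taken from lists chosen with earlier results of these data known. Between genotypes, 0 genes of any of these lists were called in any class. Cdh2 (N-cadherin) came nearest in all myogenic cells, at 5.5, 6.0, 10.5 and 8.4 CPM in control 1, control 2, α-cdKO 1 and α-cdKO 2 (log2 fold change 0.71, SE 0.16, adjusted p = 0.41). Cdh15 (M-cadherin) was at 77.7, 55.3, 45.01 and 55.05 CPM (−0.42, SE 0.21, adjusted p = 0.72).

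Between states the partners moved in both directions, and the counts below are for activated-like against quiescent-like cells beside 74.3% of all genes called. Of 4 classical cadherins tested, Cdh15 fell by 0.89 (SE 0.13) and Cdh2 by 0.43 (SE 0.15), and Cdh4 and Cdh6 were at 0.07 and 0.05 without a call. Cdh15 was at 92.0, 91.6, 86.9 and 97.5 CPM in quiescent-like and 72.7, 43.2, 31.0 and 44.2 CPM in activated-like cells of control 1, control 2, α-cdKO 1 and α-cdKO 2. Jup, Cdh15 and Cdh2 were thus lower, and Ctnna1, Ctnnb1 and Ctnnd1 higher, in activated-like cells. All 3 tested relatives of p120 and plakophilins were called, Pkp4 (1.62) and Pkp2 (1.23) higher and Arvcf (−1.27) lower.

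Of the 9 actin partners of α-catenin, 5 rose and 1 fell with TMM. Vcl, which encodes the vinculin that binds stretched α-catenin, rose by 1.40 (SE 0.09), from 27.5 to 31.3 CPM in quiescent-like to 68.2 to 83.5 CPM in activated-like libraries. Tjp1 (ZO-1) rose by 0.73 and Zyx (zyxin) by 0.67, and Ajuba, a LIM protein of junctions, fell by 3.05. Lima1 (0.28) and Vasp (0.36) were called with TMM but not with library totals, where 3 rose and 2 fell.

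All 9 tested genes of the β-catenin destruction complex were called, 5 higher and 4 lower under each of the 3 scalings. The kinase gene Csnk1a1 rose by 1.19 and the ubiquitin ligase gene Fbxw11 by 1.46, Apc by 0.66, and Axin1 and Gsk3a by 0.77 and 0.46. Gsk3b fell by 0.93, Btrc, which encodes the relative of the Fbxw11 product, by 0.96, Amer1 by 2.16 and Axin2, which is also a Wnt target, by 2.00. Of 8 nuclear partners of β-catenin, 4 fell with TMM and 0 rose, led by Pygo1 (−1.85) and Bcl9l (−1.75), and 2 fell with DESeq2 and 5 with library totals. Of 4 Wnt target genes tested, Lgr5 (−2.16) and Axin2 fell and Tcf7 and Znrf3 had no call. These 2 of 4 stand beside 43.4% of all genes lower, and Axin2 is also counted in the destruction list.

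Desmosomal genes, which γ-catenin also serves, could not be tested between states. In all myogenic cells Dsp (desmoplakin) had 98 UMIs, Perp 58, Dsg2 8 and Dsc2 5, and Dsg1a and Dsc3 had 0, which allows up to 0.0130 CPM for each (3 UMIs over the 4 libraries together). Between genotypes Dsp was the one desmosomal gene tested in all myogenic cells, at 1.03, 0.340, 0.272 and 0.233 CPM in control 1, control 2, α-cdKO 1 and α-cdKO 2, and was not called (log2 fold change −1.46, 95% interval −2.81 to −0.12, adjusted p = 0.69), with control 1 far above the other 3 libraries.

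**Figure D5:**
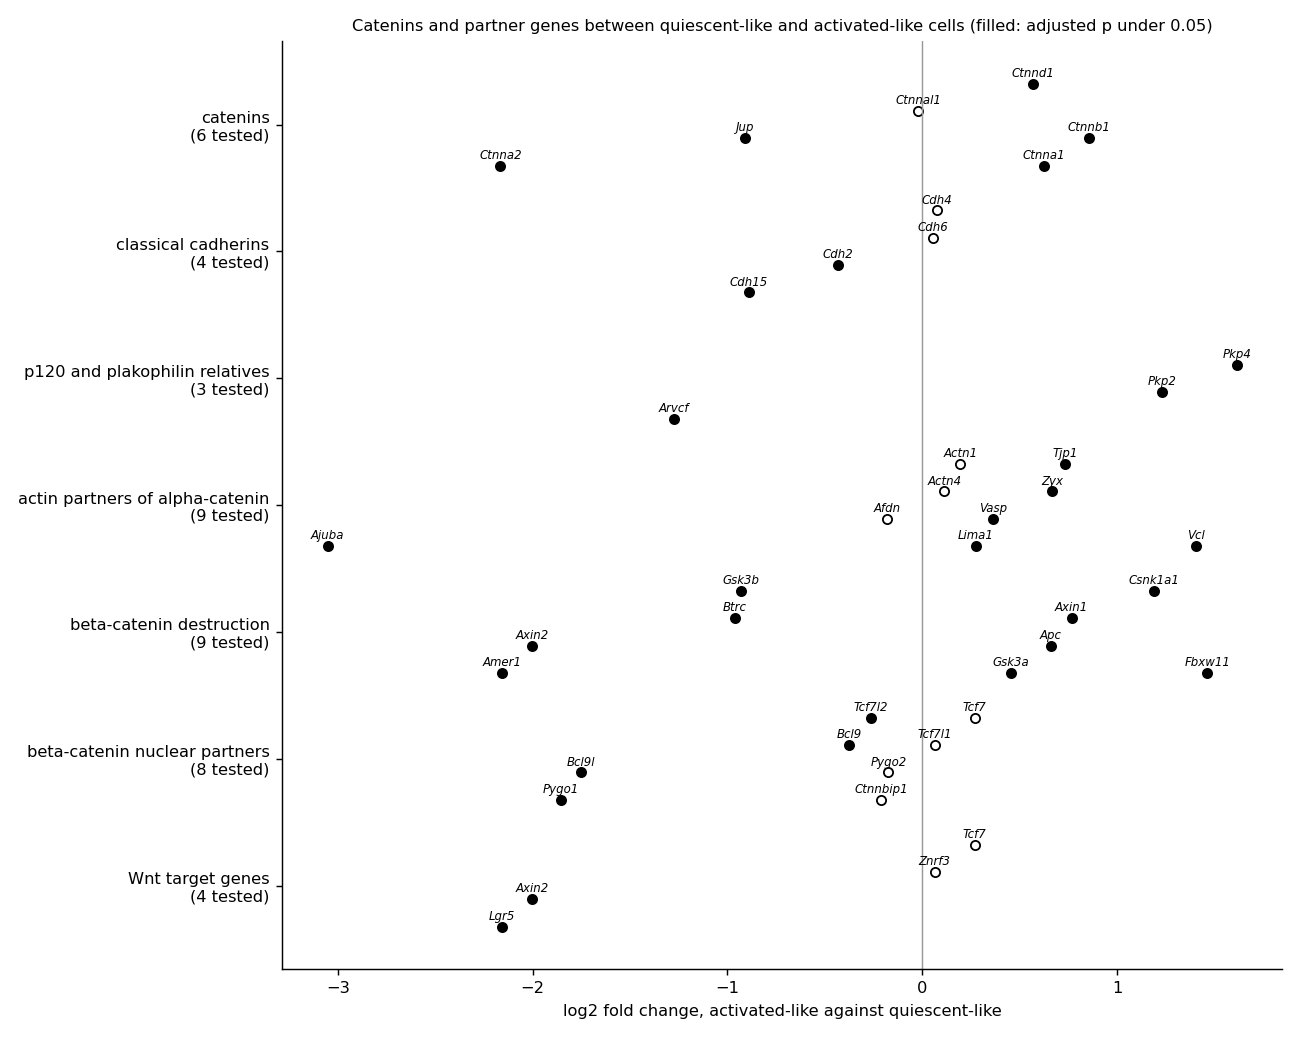
Log2 fold change, activated-like against quiescent-like, of the catenins and their partner genes by list, with filled points for an adjusted p under 0.05 in the TMM fit. Cdh15 and Cdh2 lie left of 0, Vcl and Pkp4 are among the points farthest to the right, and the destruction complex has 5 genes right and 4 left of 0.

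Across the 16 sums of library and state, the genes most like each catenin by Pearson correlation of log2 CPM were named from 4509 genes above a mean of 20 CPM. For Ctnna1 they were Agpat5 (r = 0.94), Ppp1r12c (0.94) and Gnai3 (0.92), for Ctnnb1 Ube2n, U2af1 and Rps19bp1 (0.98 each), for Ctnnd1 Pnpla2 (0.97), Eif5b (0.97) and Arl5a (0.96), and for Jup Npc2 (0.96), Rsu1 (0.94) and Prkcq (0.93). Among the catenins, r was 0.72 for Ctnnb1 with Ctnnd1, 0.62 for Ctnnb1 with Ctnna1 and −0.70 for Ctnnb1 with Jup. The other pairs gave 0.33 for Ctnna1 with Ctnnd1, −0.12 for Ctnna1 with Jup and −0.69 for Ctnnd1 with Jup. These are descriptions over sums that share libraries and depth.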

How the data were processed

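The authors deposited raw UMI counts per gene and barcode from Cell Ranger 7.1.0 (per the file headers) on GRCm38, with no normalization. Whether intronic reads were counted is not given in the sources used here. Cells were filtered as the study states, clustered with Seurat 5.3.0 on 2000 variable genes and 30 principal components after a Harmony correction written for this work, at Louvain resolution 0.2, and named from marker lists. Scrublet marked 1, 5, 0 and 1 cells in the 4 libraries, too few to be of use, so doublets stayed in and the 241, 229, 766 and 533 highest scores were left out only as an alternative. In α-cdKO 1, where Scrublet marked 0, 391 of 9402 myogenic cells (4.16%) held both Xist and Y-linked UMIs. The part of doublets in these cells was not tested. Sums of counts over the cells of a class in a library went into the quasi-likelihood test of edgeR 4.0.16, after filterByExpr and TMM, and genes with a Benjamini-Hochberg adjusted p under 0.05 were called. DESeq2 1.42.0 was an alternative. The tests were checked on simulated counts. The genotype test in all myogenic cells recovered 45.5% of true log2 fold changes of 1 and 97.0% of those of 2. The test of activated-like against quiescent-like cells recovered 93.9% and 100%. For shares, cells were thinned to 2000 UMIs, which left out 78, 405, 235 and 69 kept cells. Gene positions are from GENCODE M21. The named genes were the 7 catenins, the fixed partner lists and the 3 genes most like each catenin above 10 CPM. Members and lists were chosen with earlier results of these data known. R 4.3.3, Python 3.11.15 and SciPy 1.17.1 were used.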

Additional observations from a re-analysis of the deposited data

How the results depend on the processing

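The count of called catenins was 0 between genotypes in every class, and 0 for genotype by state, under every alternative run. The counts between states stayed within 4 to 5 (activated-like against quiescent-like), 3 to 5 (cycling-like against activated-like) and 2 to 4 (differentiated-like against activated-like). Ctnna1, Ctnnb1, Ctnnd1 and Jup kept direction and call between quiescent-like and activated-like cells under all 14 alternatives each, with log2 fold changes of 0.49 to 0.75, 0.72 to 0.98, 0.43 to 0.69 and −1.04 to −0.78. Signs turned mainly where values were near 0, and the cause was not tested. With library totals in place of TMM, the cycling-like comparison gave 0.31 for Ctnna1, 0.23 for Ctnnb1 and 0.54 for Ctnnal1, the differentiated-like comparison 0.18 for Ctnnb1, and the genotypes −0.029 for Jup (quiescent-like) and −0.0062 for Ctnnd1 (activated-like). Among Y-only cells the genotype value was −0.0084 for Jup in all myogenic, −0.010 in quiescent-like and −0.10 in differentiated-like cells, −0.0064 for Ctnnd1 in activated-like and −0.059 in differentiated-like cells, and −0.0091 for Ctnnb1 in differentiated-like cells. With no filter on low counts, Jup between genotypes was 0.041 (cycling-like) and Ctnnal1 between quiescent-like and activated-like cells 0.10, and the latter was 0.036 with DESeq2 and 0.0075 with other seeds. Ctnnal1 between cycling-like and activated-like cells was 0.036 without integration and 0.019 at resolution 0.4. Ctnnal1 between genotypes in differentiated-like cells was 0.022 at resolution 0.4, 0.014 without the top doublet scores and 0.00047 with other seeds, which also moved Ctnnd1 between differentiated-like and activated-like cells to −0.047. Jup between genotypes in differentiated-like cells, 0.13 in the figure of genotype changes, moved to 1.13 without the top doublet scores, 1.04 at resolution 0.1, 1.03 with other seeds and 0.66 without integration, with no call.

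Leaving out 1 library at a time gave −2.58 to 0.17 percentage points for the share of cells with a Ctnna1 UMI, positive without control 1. Between genotypes it gave −0.25 to 0.060 for Ctnna1 in all myogenic cells, −0.13 to 0.18 for Jup in quiescent-like cells and −0.039 to 0.087 for Ctnnd1 in activated-like cells. Quiescent-like values also moved to 0.025 to 0.25 for Ctnna1, 0.013 to 0.26 for Ctnnb1 and 0.12 to 0.47 for Ctnnd1. In cycling-like cells the range was −0.30 to 1.27 for Ctnnal1, −0.17 to 0.32 for Jup and 0.058 to 0.73 for Ctnnd1. In differentiated-like cells it was −0.22 to 0.039 for Ctnnal1, −0.071 to 0.20 for Ctnnb1, −0.089 to 0.33 for Jup and −0.33 to 0.28 for Ctnna1. Ctnnal1 between states ranged from −0.13 to 0.11, −0.29 to 0.22 and −0.028 to 0.25, in the order of the counts above. The genotype by state term ranged from −0.20 to 0.48 for Ctnnal1, −0.029 to 0.15 for Ctnnb1 and −0.17 to 0.44 for Jup.

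The labels do not say whether the replicate numbers pair the samples. Deviations of same-numbered libraries correlated at −0.18 in all myogenic, 0.020 in quiescent-like and −0.16 in activated-like cells. The values were −0.069 in cycling-like and 0.11 in differentiated-like cells. With 2 libraries per genotype, the crossed correlation is the same value with the sign turned, so this cannot settle the pairing. The replicate block changed Jup between genotypes in cycling-like cells to 0.0083 and called 0 catenins. It called 29 genes of all in place of 25 in all myogenic, 25 in place of 9 in quiescent-like, 14 in place of 2 in cycling-like and 12 in place of 1 in differentiated-like cells. A crossed block, added after seeing the data, called 175 genes in all myogenic and 103 in place of 43 in activated-like cells, again with 0 catenins. The number of all genes called depended on the setting much more: over all alternatives it ran from 0 to 175 in all myogenic, 4 to 284 in quiescent-like, 14 to 382 in activated-like, 2 to 250 in cycling-like and 1 to 97 in differentiated-like cells. DESeq2 called 121, 21, 108, 17 and 14 genes in the same order. For genotype by state, 3 genes were called and 0 to 27 under the alternatives.

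Depth limits Ctnna3 and Ctnna2 most, at 12 and 87 UMIs in myogenic cells.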

Other observations

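Within α-cdKO 1, which held cells of both sexes, Xist-only and Y-only cells were compared in 1 library. Over its myogenic cells Ctnna1 was at 80.0 and 78.2 CPM and Ctnnb1 at 134 and 136 CPM in Xist-only and Y-only cells. Jup was at 54.8 and 38.5 CPM and Ctnnd1 at 74.5 and 63.6 CPM in the same order, and their exact Poisson 95% intervals did not overlap. These intervals cover counting error only, and with 1 library there is no replicate check. State makeup differed too: Xist-only cells included 317 cycling-like and 556 differentiated-like cells and Y-only cells 34 and 44. Within activated-like cells alone Jup was at 44.3 CPM (interval 41.7 to 47.0) in Xist-only and 34.0 CPM (31.2 to 37.0) in Y-only cells, without overlap, and Ctnnd1 at 70.1 (66.8 to 73.5) and 63.5 CPM (59.7 to 67.6), with overlap. In quiescent-like, cycling-like and differentiated-like cells the Jup intervals overlapped. Sex and mouse cannot be told apart here.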
